A study of Mus musculus with 180 samples.

Results

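Spleen RNA of TNF-deficient mice was compared with spleen RNA of wild-type mice, all taken 12 hours after lipopolysaccharide (LPS), the outer membrane glycolipid of Gram-negative bacteria that innate immune cells sense through TLR4. The TNF-deficient group was 4 mice of the strain B6.129S-Tnftm1Gkl/J given 5 mg/kg LPS (mice 9 to 12), and the wild-type group was 4 C57BL/6J mice given the same dose (mice 5 to 8). These 8 libraries are those of 1 tissue and 2 groups out of 180 libraries from 15 tissues, and all 13421 genes that passed a filter on low values, of 13820 listed, were tested. All mice were 6-week-old females and were perfused with PBS and EDTA. A further 4 C57BL/6J mice given PBS (mice 1 to 4) served for the estimate of the spread and as reference levels; no fold or test against them is given, since it would share the wild-type LPS mice. TNF-deficient mice without LPS were not analysed here, so a difference that was there before LPS and one that arose after it cannot be told apart. The allele was made in 129-derived cells, and the absence of TNF and any remaining 129-derived sequence around the gene cannot be told apart either.

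TNF is a cytokine that macrophages, dendritic cells and lymphocytes release within minutes to hours of meeting LPS. It binds TNFR1 (Tnfrsf1a) and TNFR2 (Tnfrsf1b), which activate NF-kB, a transcription factor that switches on chemokines, adhesion molecules and its own inhibitor. In the spleen, TNF and the related lymphotoxins also maintain the stroma of the white pulp: follicular dendritic cells and B cell follicles need TNF signals to form, and mice without TNF are known for disorganised follicles without follicular dendritic cell networks.

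The values are normalized signal from sequencing of the 3′ ends of transcripts, 1 library per mouse. The compared libraries held 433575 to 912730 counts, and each count was worth 0.889 to 1.80 units of signal, which means that a level below about 10 rested on few counts. Fold changes are differences of log2(signal + 1), which understates the change of low genes, with the standard error (SE) of the fit and p-values from limma adjusted over all genes tested. A gene was called at an adjusted p below 0.05. The labels give each library its own mouse, and the p-values measure the spread between these mice.

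In the TNF-deficient spleens 343 genes were called higher and 213 lower, which is 2.56% and 1.59% of the genes tested, or 4.14% in both directions. Of these, 84 were higher and 61 lower by a factor of at least 2. Among the 213 were 17 pancreatic enzyme genes, which leaves 196. The split between directions depended on the scaling, since with median-of-ratios scaling 256 genes were called higher and 251 lower, and with edgeR on the recovered counts 318 and 318. The median log2 difference over all genes was 0.04. For 1305 genes (9.72%) no wild-type library overlapped any TNF-deficient one.

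**Figure D1:**
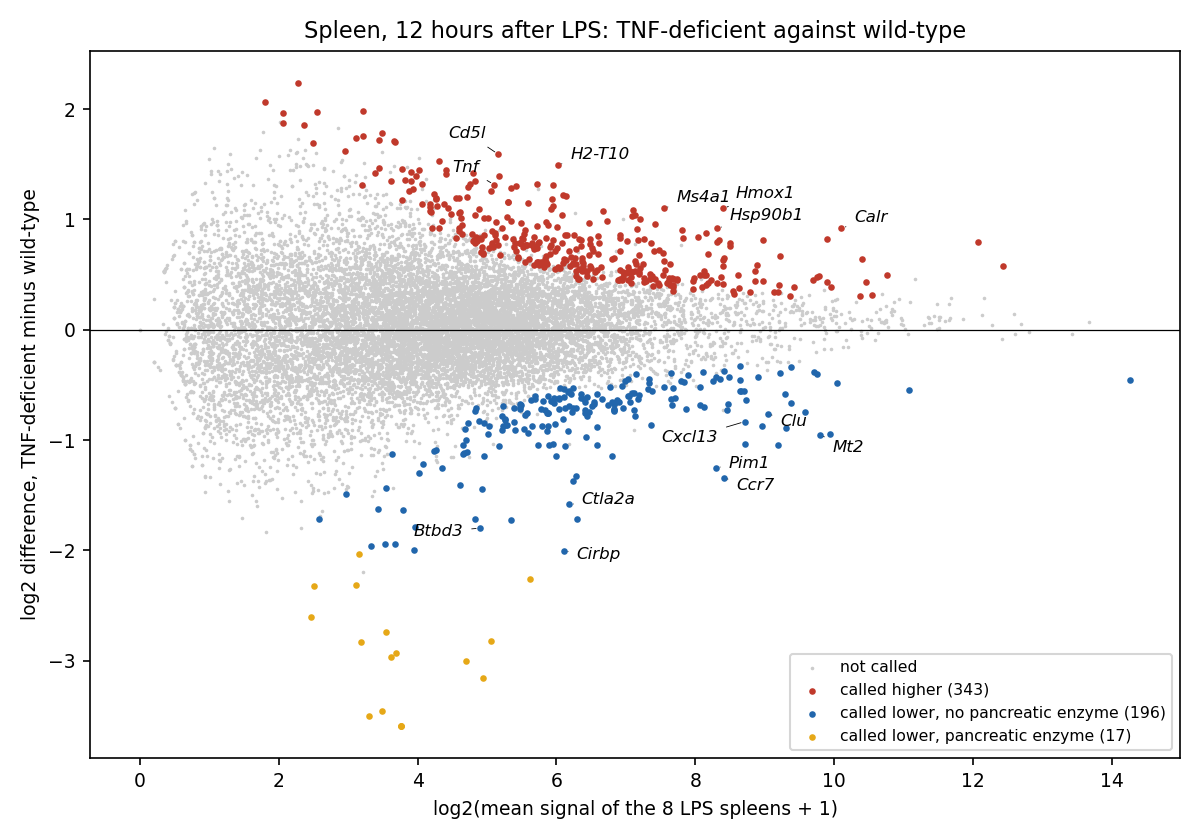
Log2 difference between TNF-deficient and wild-type LPS spleens (vertical axis) against the mean level of the 8 spleens (horizontal axis, log2 of signal + 1), 1 point per tested gene. The 343 genes called higher are red, the 196 called lower that are no pancreatic enzyme are blue and the 17 pancreatic enzyme genes are yellow. Cirbp and Ccr7 lie lowest among the blue genes of their level.

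The wild-type LPS spleens were not alike. Mice 7 and 8, which had the fewest counts, were often the extreme libraries of their group, and mouse 6 often lay nearest to the TNF-deficient spleens. Without mice 7 and 8 the fit called 73 genes higher and 76 lower, while without mice 5 and 6, which leaves the same number of libraries, it called 691 and 273. Leaving out any 1 of mice 7, 8, 9, 11 and 12 took the count of genes called higher to between 191 and 206, and leaving out mouse 7, 11 or 9 took the count called lower to between 139 and 145. In all, 118 of the genes called higher and 90 of those called lower were called whichever mouse was left out, and 58 and 47 were called under both of the pairwise omissions.

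Pancreatic enzyme transcripts, which a piece of pancreas beside the spleen would carry, summed to a signal of 1175, 1034, 265 and 343 in the wild-type LPS spleens of mice 5 to 8. In the TNF-deficient spleens of mice 9 to 12 they summed to 146, 355, 126 and 145, and in the PBS spleens to between 133 and 156. Of the 28 tested, 17 were called lower, with 9 called without mouse 5, 5 without mice 5 and 6, and 1 with DESeq2. DESeq2 gave an adjusted p to only 5875 of all genes, so a member it did not call may have had none. Cela1, an elastase, was chosen as an example after its values were seen, and had a signal of 172, 111, 17.3 and 36.1 in mice 5 to 8 and 11.1, 18.8, 12.8 and 6.66 in mice 9 to 12. For Cela1, mice 5 and 6 stood far above the rest, and mouse 8 above the others. In the sums mice 5 and 6 stood far above the rest as well, but TNF-deficient mouse 10 (355) lay above wild-type mice 7 and 8 (265 and 343). With the enzyme genes removed and the rest scaled by its total count, 245 genes were called higher and 238 lower. Scaling by the total count with the enzymes kept gave 244 and 254. The fit without the enzymes therefore changed the scaling as well. The part of the enzymes in the other results was not tested beyond this and beyond the fits without mice 5 and 6.

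Markers of spleen cells were present throughout. The summed signal of 18 B cell genes was 1542 to 2435 in the wild-type LPS spleens and 2533 to 2792 in the TNF-deficient ones, against 3443 to 4003 after PBS, and 19 of 20 red pulp macrophage genes were detected in every group. In whole tissue, fewer cells of a type and less RNA per cell cannot be told apart.

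Tnf transcripts themselves were more abundant in the TNF-deficient spleens. Tnf (chr17:35199381-35202007, GRCm38) had a signal of 18.7, 13.4, 15.7 and 28.9 in wild-type mice 5 to 8 and of 37.4, 55.3, 50.2 and 47.9 in TNF-deficient mice 9 to 12. Every TNF-deficient spleen was above every wild-type one (log2 difference 1.31, SE 0.28, adjusted p = 0.0038), and the PBS spleens lay at 8.87, 18.4, 9.67 and 7.36. The labels do not say which part of the gene the allele removes, and the reads come from the 3′ end, so this level does not check the genotype. Ltb, which encodes lymphotoxin beta and lies next to Tnf, had a signal of 92.4, 94.1, 48.7 and 43.3 in mice 5 to 8 and 114, 125, 104 and 98.5 in mice 9 to 12 (log2 difference 0.74, SE 0.18, adjusted p = 0.011). The groups did not overlap for Ltb, but mice 7 and 8 were the low ones, and the call was lost without either of them.

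Of 19 TNF family ligands and receptors tested, 3 were called higher and 1 lower, with a median log2 difference of -0.27. That is 15.8% and 5.3%, against 2.56% and 1.59% of all genes. The 3 were Tnf itself, its neighbour Ltb and Tnfrsf13c. Tnfrsf13c, the BAFF receptor of B cells, rose from 50.4 ± 21.4 to 87.2 ± 4.63 (mean ± SD, n = 4; log2 difference 0.86, SE 0.19, adjusted p = 0.0063), and no libraries overlapped. Cd40, a co-stimulatory receptor of B cells and antigen-presenting cells, fell (log2 difference -0.87, SE 0.23, adjusted p = 0.022), with 69.3, 37.9, 127 and 73.9 in mice 5 to 8 and 41.5, 32.9, 40.3 and 38.6 in mice 9 to 12, and the groups overlapped through mouse 6. That call was lost without mouse 7, 8, 10 or 12. The receptors of TNF did not pass the test: Tnfrsf1a had a log2 difference of -0.44 (adjusted p = 0.1, 95% interval -0.74 to -0.14), although its 4 wild-type spleens were all above the 4 TNF-deficient ones. Tnfrsf1b had one of 0.01 (interval -0.29 to 0.32) and Ltbr, the lymphotoxin beta receptor, one of -0.45 (interval -0.96 to 0.05). Lta was not analysed here. Among 28 genes of TNF receptor signalling, Birc3 and Map3k14 were called lower (7.1%) and none higher.

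Other genes near Tnf were called as well. With Tnf itself counted, 10 of 87 tested genes within 1 Mb were called (11.5%), 8 of them higher, against 4.14% of all genes, and 19 of 269 within 10 Mb (7.06%). Beyond 20 Mb on the same chromosome 6 of 204 were called (2.94%). H2-T10, a non-classical MHC class I gene 0.92 Mb from Tnf, had a signal of 36.4, 26.9, 36.1 and 32.5 in mice 5 to 8 and of 95.1, 107, 90.5 and 85.2 in mice 9 to 12 (log2 difference 1.5, SE 0.20, adjusted p = 1e-05). H2-Q6, another class I gene 0.23 Mb from Tnf, went the other way, with 124, 90.5, 118 and 97.4 against 32.4, 47, 45.2 and 39.9 (log2 difference -1.37, SE 0.16, adjusted p = 1.7e-06), and H2-Q7 beside it fell as well (log2 difference -0.63, SE 0.10, adjusted p = 8.5e-05). In none of these genes did the groups overlap, which for H2-T10 the naming rule required. H2-Q6, H2-Q7 and H2-T10 have near-identical relatives that the counting could confuse, so their values are uncertain.

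Farther along chromosome 17, 4 genes were chosen after their values were seen. Glo1, which detoxifies methylglyoxal and lies 4.61 Mb from Tnf, had a signal of 58.6, 55, 56.5 and 64.9 in mice 5 to 8 and 134, 109, 122 and 101.17 in mice 9 to 12 (log2 difference 0.97, SE 0.14, adjusted p = 3.7e-05). Pim1, a cytokine-induced kinase 5.71 Mb from Tnf, had 333, 367, 546 and 532 against 190.2, 199, 159 and 182 (log2 difference -1.25, SE 0.14, adjusted p = 8.4e-07). The paralogs Rnaset2a and Rnaset2b, about 27.1 and 28.2 Mb away, moved in opposite directions (1.08 and -1.32), and reads could be split between them. Vmn2r97 (log2 difference -1.94, SE 0.39, adjusted p = 0.0025) and Zfp945 (log2 difference -1.49, SE 0.39, adjusted p = 0.022), 2 of the 15 largest falls under the naming rule, lie 16.3 and 12.4 Mb from Tnf. Leaving out 1 mouse ended the call of Zfp945 (mice 5, 7, 9 and 11), and both calls were lost without mice 5 and 6.

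**Figure D2:**
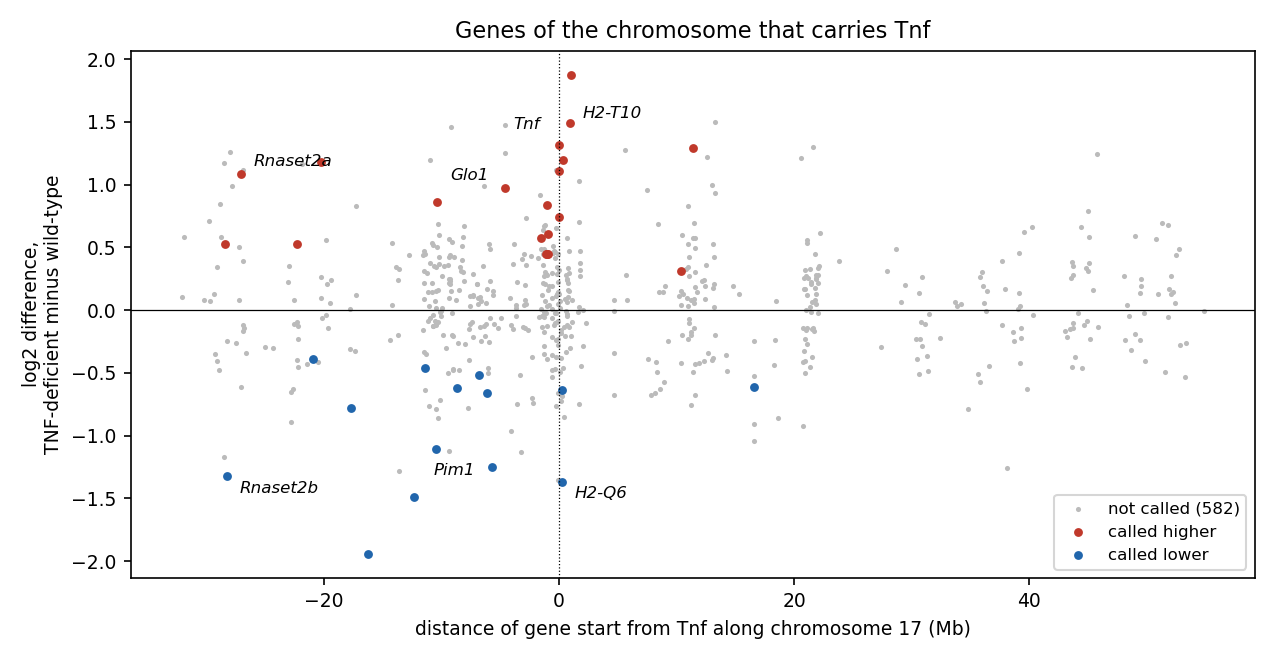
Log2 difference (vertical axis) of the 616 tested genes of chromosome 17 against the distance of the gene's start from that of Tnf in megabases (horizontal axis), with the 34 called genes in colour. Called genes within 1 Mb of Tnf are mostly higher, with H2-Q6 and H2-Q7 lower.

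Genes of the B cell follicle's stroma were lower in the TNF-deficient spleens. Of 17 tested members of a list for follicular dendritic cells and follicle stroma, 5 were called lower and none higher (29.4% against 1.59% of all genes). The median log2 difference was -0.33 against 0.04 over all genes. The summed signal of the list was 2050 to 2429 in wild-type and 1542 to 1721 in TNF-deficient spleens. That sum rested largely on the 5 called genes. Cxcl13 (chr5:95956951-95961068) encodes the chemokine that draws B cells into follicles. Its signal was 593, 645, 462 and 451 in mice 5 to 8 and 309.6, 342, 329.5 and 226 in mice 9 to 12 (log2 difference -0.83, SE 0.12, adjusted p = 6.3e-05), against 214, 216, 248 and 202 in the PBS mice. All TNF-deficient spleens were below all wild-type LPS spleens. Clu (chr14:65968483-65981547), a secreted chaperone abundant in follicular dendritic cells, had a signal of 674, 702, 670.4 and 602 against 382, 408, 365 and 405 (log2 difference -0.76, SE 0.09, adjusted p = 1.6e-06). Its spread was narrow in both groups, and the PBS spleens were higher than either, at 871, 812, 916 and 789.7.

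Mfge8, a bridging protein with which follicular dendritic cells and macrophages mark dying cells, had 300.3, 328, 342 and 290.3 in mice 5 to 8 and 232, 206, 216 and 225 in mice 9 to 12 (log2 difference -0.52, SE 0.09, adjusted p = 0.001). Enpp2, the enzyme autotaxin that makes lysophosphatidic acid, had 65.8, 61.1, 48.7 and 73.9 against 27.3, 35.3, 29.5 and 35.9 (log2 difference -0.93, SE 0.18, adjusted p = 0.0013). Madcam1 (chr10:79664559-79668537), an adhesion molecule of marginal sinus lining and follicle stroma, had the largest fall of the list, with 13.3, 20.8, 20.4 and 12.6 against 3.03, 9.41, 0.98 and 3.99 (log2 difference -1.94, SE 0.39, adjusted p = 0.0028). None of the 3 overlapped between groups, though Madcam1 rested on few counts. These 5 calls were kept whichever mouse was left out, and also without mice 5 and 6 and without mice 7 and 8. DESeq2 on the recovered counts called 4 of them and gave Madcam1, which its own filter left out, no adjusted p.

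The remaining 12 members of the list did not pass the test. Cr2, the complement receptor of B cells and follicular dendritic cells, had means of 38.6 ± 16.5 and 43.7 ± 11.7, and Coch had 139.7 ± 11 and 140.1 ± 20.2 (mean ± SD, wild-type then TNF-deficient, n = 4). Both had higher means after PBS, at 132 ± 9.13 and 454 ± 47. Fcgr2b (-0.09), Bst1 (-0.17), Vcam1 (0.02), Prnp (-0.12), Serpine2 (-0.33), Tnfsf13b (-0.73) and Icam1 (-0.67) had the log2 differences in brackets, and Icam1, an adhesion molecule, was called lower without mouse 6 and with edgeR. C4b, a complement component, had one of 0.47 and missed the threshold (adjusted p = 0.053), with no overlap between groups. Cilp (-1.11) and Sostdc1 (0.23) had a signal of at most 5.41 in every LPS spleen. In the T zone, Ccl21a, a chemokine that guides T cells and dendritic cells, fell from 85.6 ± 12 to 57.8 ± 6.98 (log2 difference -0.56, SE 0.13, adjusted p = 0.011), and leaving out mouse 9 removed that call. It has near-identical copies, so its reads may come from more than 1 gene. Ccl19, its partner on the same receptor, and Cxcl12 were chosen after their values were seen and were not called (-0.41, adjusted p = 0.09 and 0.14, adjusted p = 0.58).

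**Figure D3:**
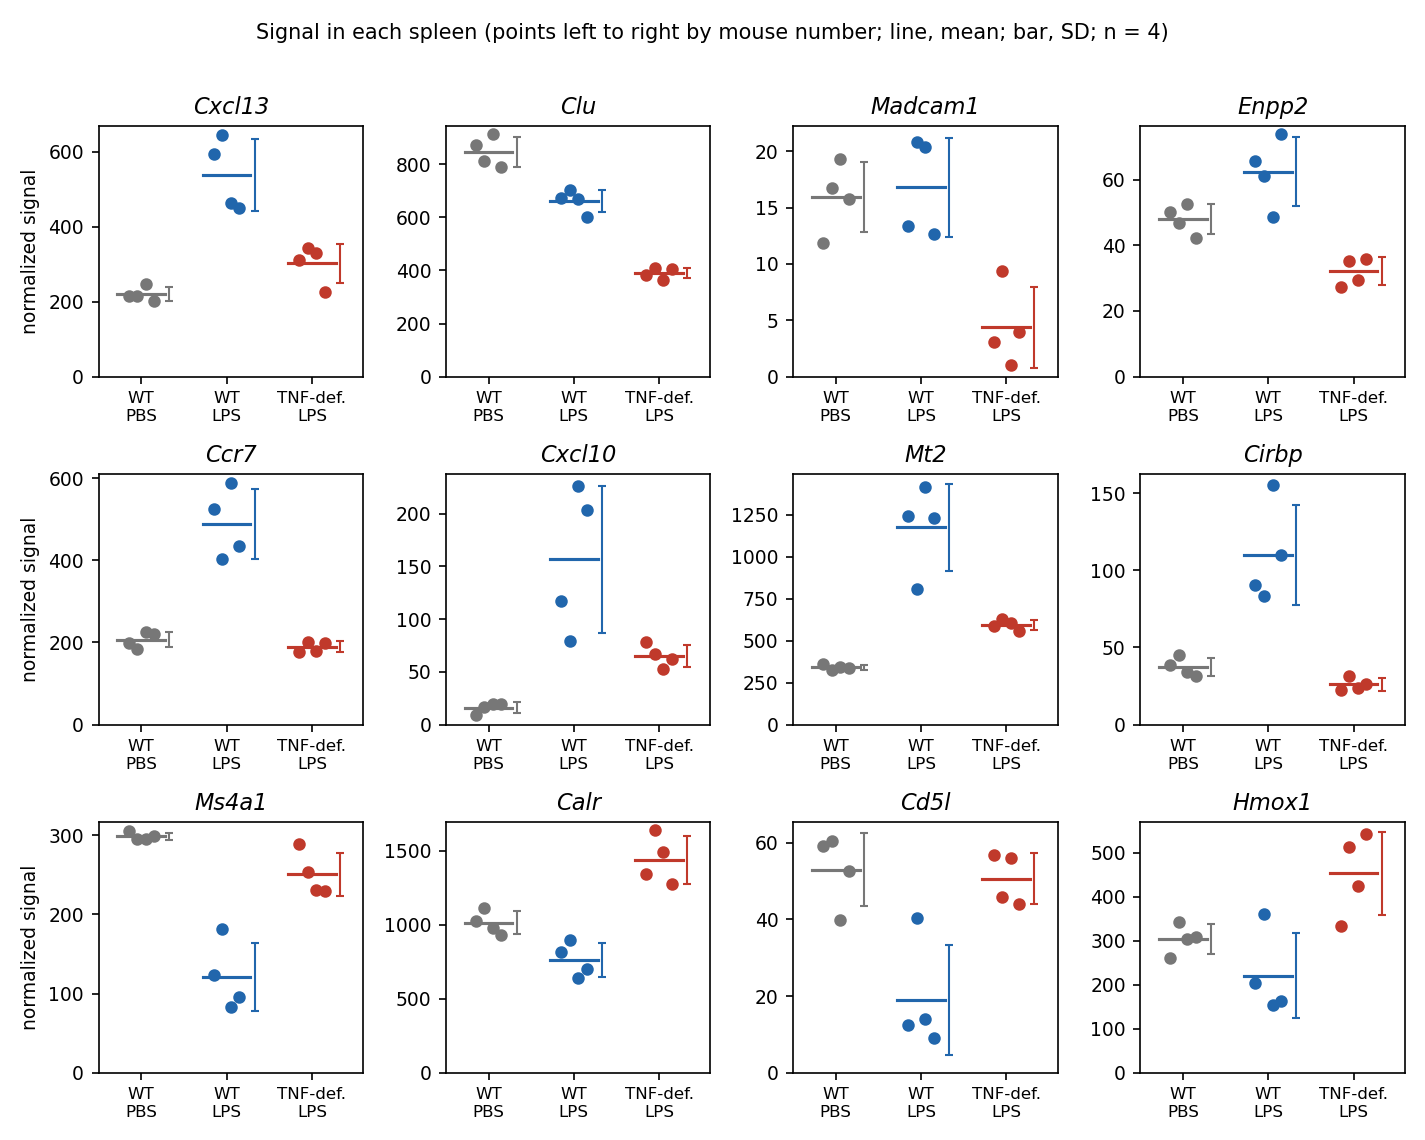
Normalized signal of 12 genes in each spleen (vertical axes from 0) in wild-type PBS, wild-type LPS and TNF-deficient LPS mice, with 1 point per mouse, the mean as a line and the SD as a bar (n = 4). Cxcl13, Clu, Madcam1, Enpp2, Ccr7, Cxcl10, Mt2 and Cirbp are lower, and Ms4a1, Calr, Cd5l and Hmox1 higher, in TNF-deficient than in wild-type LPS spleens, and in Hmox1 the wild-type mouse 6 reaches into the TNF-deficient range.

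NF-kB targets and chemokines were lower in the TNF-deficient spleens where they were called. Of 32 NF-kB target genes tested 6 were called lower and none higher (18.8%, median -0.39), and of 27 chemokines 5 were lower and none higher (18.5%, median -0.45). The lists overlap, so their counts are not separate results. Ccl5 and Cxcl10 are in both, and Cxcl13, Ccl21a, Birc3 and Lcn2 are also called members of other lists. Nfkbia, the inhibitor that NF-kB induces against itself, had a signal of 462, 416, 479 and 485 in mice 5 to 8 and 308, 345, 346 and 345 in mice 9 to 12 (log2 difference -0.45, SE 0.10, adjusted p = 0.0044), against 237, 223, 250.2 and 263 after PBS. It was the only call among 16 NF-kB subunits and feedback genes. Birc3, an NF-kB-induced ubiquitin ligase at the TNF receptor, had 135, 139, 152 and 132 against 74.9, 69.4, 88.5 and 106 (log2 difference -0.73, SE 0.15, adjusted p = 0.0034). For both genes the TNF-deficient spleens lay below all wild-type LPS spleens. Gadd45b, which protects cells from TNF-induced death, fell from 106 ± 7.11 to 62.3 ± 4.45 (log2 difference -0.76, SE 0.16, adjusted p = 0.005), without overlap.

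Cxcl10, a chemokine that draws activated T cells and NK cells, had a signal of 117, 79.5, 226 and 204 in mice 5 to 8 and of 77.9, 67, 53.1 and 62.6 in mice 9 to 12 (log2 difference -1.15, SE 0.24, adjusted p = 0.0044). The groups did not overlap, and the wild-type range was wide, with mice 7 and 8 highest. Cxcl9, which acts on the same receptor, had 785, 577, 763 and 882 against 427, 624, 457 and 499 (log2 difference -0.58, SE 0.13, adjusted p = 0.0078), and Ccl5, a chemokine of T and NK cells, had 2747, 1750.5, 2815 and 3026 against 1565, 1788, 1896 and 1693 (log2 difference -0.55, SE 0.12, adjusted p = 0.0045). In both, wild-type mouse 6 lay within the TNF-deficient range. Irf1, a transcription factor of interferon responses, fell (log2 difference -0.63, SE 0.17, adjusted p = 0.025), and Map3k14, the kinase that starts the alternative NF-kB pathway, fell (log2 difference -0.90, SE 0.27, adjusted p = 0.048). Lcn2, an iron-binding acute-phase protein, had 981, 982, 966 and 972 against 649, 827, 736 and 753 (log2 difference -0.40, SE 0.09, adjusted p = 0.0063), a small difference with almost no spread among wild-type mice. Single-mouse omissions removed the call of Cxcl9 (mouse 9), Irf1 (mice 7, 8, 9, 10 and 11) and Map3k14 (mice 3, 5, 6, 7, 8, 9, 10 and 11). Without mice 7 and 8 the NF-kB target list had 2 calls and the chemokine list 2, and without mice 5 and 6 they had 13 and 9. Without mouse 6 alone they had 10 and 8, and the chemokine list also had 8 with edgeR.

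Several well-known inflammatory genes of these lists were not called, and were chosen after their values were seen. Il1b had means of 56.7 ± 10.4 and 51.6 ± 4.59 (95% interval of the log2 difference -0.53 to 0.29). Ccl2 had 60.4, 47.7, 86.4 and 126 in mice 5 to 8 and 53.6, 48.2, 50.2 and 53.2 in mice 9 to 12 (adjusted p = 0.34). Il6 stood at 4.44, 2.44, 12.6 and 18 against 4.05, 2.35, 1.97 and 2.66 (adjusted p = 0.25), with mice 7 and 8 high and the rest near the level of a few counts. Cxcl1 (-1.14, adjusted p = 0.077) and Cxcl2 (-0.66, adjusted p = 0.32), which draw neutrophils, missed the threshold as well, and for Cxcl1 the groups did not overlap and the call was made without mouse 6 and with edgeR.

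The promoters of 15 members called lower of the follicle, NF-kB, chemokine and TNF receptor signalling lists were searched in the RefSeq promoter table for the 10-base NF-kB motif known as the kB site. A promoter of 300 bases, from 250 before to 50 after the gene's start, was found for 12 of them, and 4 held at least 1 match on either strand. Matches were present in 645 of 10198 tested genes with a promoter (6.3%), in 19 of 148 called lower that are no pancreatic enzyme (12.8%) and in 16 of 267 called higher (6.0%). A match is a run of letters and not a measured binding site. The promoters of Madcam1, Cxcl10 and Nfkbia are shown because they come from different lists and hold 2, 2 and 1 matches. They are printed 5′ to 3′ in the direction of the gene, with the matches in capitals (GRCm38.p6, Madcam1 chr10:79664309-79664608, plus strand, Cxcl10 chr5:92348840-92349139, minus strand, Nfkbia chr12:55492598-55492897, minus strand).
Madcam1: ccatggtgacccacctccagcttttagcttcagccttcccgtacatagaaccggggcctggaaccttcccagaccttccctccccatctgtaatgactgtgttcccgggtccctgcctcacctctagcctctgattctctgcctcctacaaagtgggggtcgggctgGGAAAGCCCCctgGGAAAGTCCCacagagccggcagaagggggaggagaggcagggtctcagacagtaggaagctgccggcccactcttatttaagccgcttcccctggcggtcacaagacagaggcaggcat
Cxcl10: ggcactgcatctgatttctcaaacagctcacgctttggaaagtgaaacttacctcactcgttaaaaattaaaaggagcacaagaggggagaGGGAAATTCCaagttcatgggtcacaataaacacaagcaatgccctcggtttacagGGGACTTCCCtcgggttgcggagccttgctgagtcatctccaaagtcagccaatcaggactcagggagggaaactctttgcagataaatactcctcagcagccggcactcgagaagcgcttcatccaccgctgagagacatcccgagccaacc
Nfkbia: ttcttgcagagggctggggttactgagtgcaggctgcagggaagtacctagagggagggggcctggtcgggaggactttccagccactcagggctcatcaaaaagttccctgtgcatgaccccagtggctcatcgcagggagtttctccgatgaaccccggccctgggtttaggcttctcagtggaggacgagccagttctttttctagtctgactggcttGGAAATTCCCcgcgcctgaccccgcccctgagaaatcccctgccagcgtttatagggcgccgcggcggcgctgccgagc
The first bases of the Madcam1 matches lie 83 and 70 bases before the start, both on the reverse strand. Those of Cxcl10 lie 159 and 103 bases before the start on the forward strand, and that of Nfkbia 29 bases before the start on the reverse strand. The fourth gene with a match was Irf1.

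Genes induced by glucocorticoids and metals were lower as a group. Of 19 tested, 9 were called lower and none higher (47.4%, median -0.47). The summed signal of the 19 was 4721 to 6026 in wild-type and 3244 to 3743 in TNF-deficient spleens, against 2494 to 2885 after PBS. That sum rested largely on the called genes. The metallothioneins Mt1 and Mt2, which bind zinc and copper, were among the 9. Mt2 had 1247, 808, 1419 and 1233 in mice 5 to 8 and 588, 630.3, 604 and 560.4 in mice 9 to 12 (log2 difference -0.95, SE 0.11, adjusted p = 1.8e-06), and Mt1 had 1248, 901, 1617 and 1452 against 627, 737, 628 and 660.3 (log2 difference -0.94, SE 0.12, adjusted p = 3.3e-06). No libraries overlapped in either, and wild-type mouse 6 was the lowest of its group. Cebpd, an acute-phase transcription factor, fell from 140.4 ± 18.9 to 84.4 ± 14.5 (log2 difference -0.73, SE 0.15, adjusted p = 0.0038), and Cdkn1a, the cell cycle inhibitor p21, from 114 ± 26.5 to 70.5 ± 8.15 (log2 difference -0.66, SE 0.16, adjusted p = 0.014). Dusp1, a phosphatase that shuts off MAP kinases, fell (log2 difference -0.62, SE 0.15, adjusted p = 0.0092), as did Fkbp5, a co-chaperone of the glucocorticoid receptor chosen after its values were seen (log2 difference -0.52, SE 0.12, adjusted p = 0.01). Cdkn1a, Fkbp5 and Dusp1 lie 6.11, 6.8 and 8.69 Mb from Tnf on the same chromosome. Nfkbia, the NF-kB feedback call above, is also among the 9. The list had 3 calls without mice 7 and 8. Calls that fell away with 1 mouse left out were those of Cdkn1a (mice 7, 8 and 12) and Fkbp5 (mouse 11).

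Cytokine receptor signalling followed the same direction. Of 25 genes of the STAT pathway and its SOCS inhibitors, 6 were called lower and none higher (24%, median -0.31). Socs3, the feedback inhibitor of IL-6 signals, had 126, 77, 173 and 139 in mice 5 to 8 and 53.6, 55.3, 84.6 and 49.3 in mice 9 to 12 (log2 difference -1.05, SE 0.22, adjusted p = 0.0034), with mouse 6 below TNF-deficient mouse 11. Socs2 (log2 difference -1.11, SE 0.25, adjusted p = 0.0076), Il6ra, the IL-6 receptor (log2 difference -0.83, SE 0.17, adjusted p = 0.0038), and Stat5a (log2 difference -0.75, SE 0.17, adjusted p = 0.0076) fell without overlap between groups. None of these 4 calls was lost when 1 mouse was left out, and the list had no call without mice 7 and 8, against 8 without mice 5 and 6. Of 24 immediate early genes 4 were lower and none higher (16.7%). Jun, a subunit of AP-1, fell from 59.6 ± 16.6 to 31.3 ± 7.34 (log2 difference -0.90, SE 0.22, adjusted p = 0.014), and Dusp2 (-0.64) and Fosl2 (-0.63) fell as well. Omitting 1 mouse took away the call of Jun (mice 7, 8, 9 and 12), Dusp2 (mice 8, 9 and 11), Fosl2 (mice 5, 7, 9, 10 and 12) and Dusp1 (mice 7 and 9). Of 25 acute-phase genes 4 were lower and none higher (16%). Beside Lcn2 these were Timp1, an inhibitor of matrix proteases (log2 difference -1.15, SE 0.25, adjusted p = 0.0059), Serpina3g (log2 difference -0.67, SE 0.16, adjusted p = 0.011) and Ptx3 (log2 difference -0.75, SE 0.20, adjusted p = 0.023). The immediate early list had 1 call without mouse 7, 2 without mouse 8 or 12 and none without mouse 9 or without mice 7 and 8. The acute-phase list had 2 without mouse 7, 8 or 11 and 1 without mice 7 and 8.

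A few calls came from each of several other lists. Of the tested members, 4.2% were called for LPS sensing, 5.6% each way for the IL-1 family and 14.3% for arginine and immune metabolism. The share was 5.3% for cytokines and growth factors and 4.3% for the respiratory chain. It was 18.8% for matrix proteases and inhibitors, 10.5% for apoptosis and p53 targets and 4.2% for cholesterol and lipid synthesis, all lower. Over all genes it was 2.56% higher and 1.59% lower. Cd14, the LPS co-receptor, was the only one called of 24 LPS-sensing genes, with 156, 132, 144 and 124 in mice 5 to 8 and 62.7, 75.3, 93.4 and 112 in mice 9 to 12 (log2 difference -0.72, SE 0.16, adjusted p = 0.0053). The groups did not overlap. Il1r1, the IL-1 receptor, fell (log2 difference -1.09, SE 0.26, adjusted p = 0.012) and Pycard, the inflammasome adaptor, rose (log2 difference 0.64, SE 0.16, adjusted p = 0.016), the only calls among 18 IL-1 family genes. Bcl2l11, the pro-apoptotic protein Bim, fell from 79.6 ± 15.1 to 44.1 ± 11 (log2 difference -0.86, SE 0.18, adjusted p = 0.0044), and Insig1, a brake on cholesterol synthesis, from 105 ± 13.8 to 62.9 ± 3.72 (log2 difference -0.72, SE 0.14, adjusted p = 0.002). Slc7a11, a cystine transporter (log2 difference -1.63, SE 0.36, adjusted p = 0.0065), Slc7a2, an arginine transporter (log2 difference -1.10, SE 0.30, adjusted p = 0.031), and Nampt, an enzyme of NAD synthesis (log2 difference -0.46, SE 0.13, adjusted p = 0.038), fell out of 21 genes of arginine and immune metabolism. Adamts5, a matrix protease, fell (log2 difference -1.25, SE 0.34, adjusted p = 0.031), as did Mmp13 and Timp1 of the same list. Neither the matrix list nor the apoptosis list had a call without mice 7 and 8. Tgfb1 was the only one called of 19 cytokines and growth factors and was higher, at 43.2 ± 5.89 against 24.6 ± 6.67 (log2 difference 0.81, SE 0.20, adjusted p = 0.012), and Atp5c1 the only one of 23 respiratory chain genes, also higher (log2 difference 0.33, SE 0.09, adjusted p = 0.038). Leaving out 1 mouse ended the call of Il1r1 (mouse 8), Pycard (mice 7, 8, 9, 10 and 12), Slc7a2 (mice 5, 7, 8 and 10), Nampt (mice 5, 7, 8, 9, 10 and 11), Adamts5 (mice 5, 8, 9 and 10), Tgfb1 (mouse 12) and Atp5c1 (mice 5, 7, 8, 9, 10, 11 and 12).

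Ccr7, Fscn1 and Dnase1l3 of the conventional dendritic cell list were lower in the TNF-deficient spleens. Ccr7 (chr11:99144196-99155077), the receptor with which mature dendritic cells and naive lymphocytes reach the T zone, had the smallest adjusted p of all genes. Its signal was 525, 402, 589 and 435 in mice 5 to 8, 178, 202, 179 and 199.7 in mice 9 to 12 and 198, 184, 224 and 222 in the PBS mice (log2 difference -1.34, SE 0.11, adjusted p = 4.6e-09). The TNF-deficient spleens lay close to the PBS spleens and far below all wild-type LPS spleens. Of 15 tested genes of that list 3 were called lower and none higher (20%, median -0.45), or 5 without mice 5 and 6. The summed signal of the list was 1677 to 2531 in wild-type and 1133 to 1479 in TNF-deficient spleens. That sum rested largely on the 3 called genes. Fscn1, the actin-bundling protein of mature dendritic cells, had 380.3, 308, 375 and 308 against 213, 249, 187 and 193 (log2 difference -0.70, SE 0.12, adjusted p = 0.00059). Dnase1l3, a DNase of dendritic cells and macrophages, had 559, 473, 776 and 759 against 336, 462, 236 and 375 (log2 difference -0.87, SE 0.15, adjusted p = 0.00038). The co-stimulatory ligand Cd80, which is not on that list, had 20.4, 11, 26.7 and 34.3 against 2.02, 4.70, 8.85 and 9.32 (log2 difference -1.79, SE 0.42, adjusted p = 0.0091), and leaving out mouse 8 or 9 removed that call. Cd86, a related ligand chosen after its values were seen, fell less (log2 difference -0.65, SE 0.17, adjusted p = 0.019) and was lost without mouse 5, 8, 9 or 12.

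T cell genes gave 2 calls. Of 22 tested, Ccr7 and Il7r, the IL-7 receptor, were lower and none was higher (9.1%, against 1.59% of all genes called lower). The summed signal of the list was 936 to 1141 in wild-type and 665 to 821 in TNF-deficient spleens, against 1121 to 1333 after PBS. Ccr7 made up a large part of that sum in the wild-type LPS spleens. Il7r had 55.1, 56.2, 44 and 36.1 in mice 5 to 8 and 19.2, 34.1, 25.6 and 29.3 in mice 9 to 12 (log2 difference -0.81, SE 0.21, adjusted p = 0.021), and leaving out mouse 5, 6, 9 or 11 removed that call. The T cell receptor component Cd3e (-0.20, adjusted p = 0.77) and the co-receptors Cd4 (-0.03, adjusted p = 0.97) and Cd8a (-0.07, adjusted p = 0.93), chosen as the defining markers, were not called. Of 9 NK and cytotoxic cell genes Ccl5 was the only call (11.1%).

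B cell genes were higher in the TNF-deficient spleens. Of 18 tested, 9 were called higher and none lower (50%, median 0.48). Ms4a1, which encodes CD20, had a signal of 124, 181, 83.2 and 95.6 in mice 5 to 8, 288, 253, 231 and 229 in mice 9 to 12 and 305, 295, 295 and 299 in the PBS mice (log2 difference 1.10, SE 0.15, adjusted p = 1.5e-05). No TNF-deficient spleen reached the PBS range, and all lay above the wild-type LPS spleens. Cd79a, a B cell receptor subunit, had 180.4, 291, 159 and 139 against 344, 329, 288 and 366 (log2 difference 0.84, SE 0.14, adjusted p = 0.00031), with mouse 6 overlapping mouse 11. Bank1, a B cell scaffold protein, rose from 38.9 ± 14.5 to 74.4 ± 8.75 (log2 difference 0.98, SE 0.18, adjusted p = 0.00096), and Spib, a transcription factor of B cells and plasmacytoid dendritic cells, from 60.9 ± 29.4 to 99.9 ± 13.5 (log2 difference 0.81, SE 0.20, adjusted p = 0.014), the last lost without mouse 7, 8 or 9. The list had 7 calls with edgeR, 5 without mouse 7, 4 without mice 7 and 8 and 11 without mice 5 and 6. Of 8 follicular B cell genes, Fcer2a, the IgE receptor CD23 (log2 difference 1.19, SE 0.27, adjusted p = 0.0076), and Vpreb3 (log2 difference 1.03, SE 0.20, adjusted p = 0.0025) were higher and Ccr7 lower (25% and 12.5%). Fcer2a stood at 37.4, 30.6, 21.6 and 33.3 in the TNF-deficient and 14.2, 22, 4.71 and 16.2 in the wild-type LPS spleens, and at 140.5, 141, 132 and 95.7 after PBS. No marginal zone B cell gene of 14 and no germinal centre gene of 4 was called, against 4.14% of all genes. At that share, lists this small can hold no call, so this is no result about these cells.

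Of 11 MHC class II genes 4 were called higher and none lower (36.4%), and all 11 had a positive difference, 10 with median-of-ratios scaling. H2-DMb2, which helps to load peptides, rose from 87.5 ± 25.9 to 151 ± 8.48 (log2 difference 0.83, SE 0.15, adjusted p = 0.00091), and H2-Ab1, a class II chain, from 704 ± 97.2 to 958 ± 91.6 (log2 difference 0.45, SE 0.10, adjusted p = 0.0044). H2-Ob (0.61) and H2-DMa (0.45) were lost with median-of-ratios scaling and with edgeR. The list had 2 calls without mouse 7, 9, 10 or 12, and 1 without mice 7 and 8, and single omissions ended the call of H2-Ob (mice 5, 7, 9, 10 and 12) and H2-DMa (mice 3, 7, 8, 9, 10, 11 and 12). All 4 lie within 1.08 Mb of Tnf. The PBS means were above those of both LPS groups in all 4 genes, for H2-Ab1 at 1790.4 ± 99.6. Of 22 class I genes, Calr and the chaperone Pdia3 (0.53) and the proteasome subunit Psmb9 (0.45, named as the only other call) were higher and H2-Q6 and H2-Q7 lower (13.6% and 9.1%).

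Chaperones of the endoplasmic reticulum were higher in the TNF-deficient spleens. Of 20 genes of the unfolded protein response 8 were called higher and none lower (40%, median 0.43). Calr (chr8:84841850-84846934), the calcium-binding chaperone calreticulin, which stood in the MHC class I list, had 814, 897, 642 and 698 in mice 5 to 8, 1340.4, 1642, 1494 and 1278 in mice 9 to 12 and 1026, 1114, 978 and 934 after PBS (log2 difference 0.92, SE 0.10, adjusted p = 6.3e-07). It thus lay above both other groups. Hsp90b1, the chaperone GRP94, had 224, 317, 166 and 186 against 399, 409, 387 and 451 (log2 difference 0.92, SE 0.14, adjusted p = 5.7e-05). Pdia6, a disulfide isomerase, had 158, 169.9, 124 and 168 against 281, 310.4, 246 and 322 (log2 difference 0.90, SE 0.12, adjusted p = 6.8e-06), and Sdf2l1 had 29.3, 55, 45.5 and 32.5 against 100.2, 89.4, 80.7 and 105 (log2 difference 1.23, SE 0.18, adjusted p = 4.7e-05). Creld2 rose from 37.7 ± 8.23 to 81.7 ± 16.9 (log2 difference 1.10, SE 0.19, adjusted p = 0.00037). In these 5 genes no libraries overlapped, and no omission of 1 mouse, nor of mice 5 and 6 or of mice 7 and 8, ended a call. The list had 5 calls without mice 7 and 8. Of 10 plasma cell genes, Mzb1, a chaperone of antibody-secreting cells (log2 difference 0.92, SE 0.16, adjusted p = 0.00037), and Derl3 (log2 difference 1.26, SE 0.33, adjusted p = 0.024) were higher (20%). Jchain, chosen after its values were seen as the list's defining marker, was not called (0.21, adjusted p = 0.72). It varied widely, from 91.0 to 333 among TNF-deficient spleens.

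Cell division genes were higher in the TNF-deficient spleens. Of 28 tested, 14 were called higher and none lower (50%, median 0.81), and all 28 differences were positive, also with median-of-ratios scaling. The summed signal of the list was 1108 to 1317 in wild-type and 1747 to 2346 in TNF-deficient spleens, and spread from 869 to 1772 after PBS. Cdk1, the kinase that starts mitosis, had 25.8, 22, 9.42 and 21.6 in mice 5 to 8 and 55.6, 41.2, 54.1 and 51.9 in mice 9 to 12 (log2 difference 1.40, SE 0.27, adjusted p = 0.0015). Aurkb, a mitotic kinase, had 24.9, 17.1, 18.8 and 3.61 against 37.4, 34.1, 40.3 and 38.6 (log2 difference 1.42, SE 0.34, adjusted p = 0.012), with mouse 8 lowest. Ccnb1, cyclin B1, rose from 15.1 ± 7.55 to 36.8 ± 7.67 (log2 difference 1.33, SE 0.31, adjusted p = 0.01), and Bub1, a spindle checkpoint kinase, from 2.74 ± 0.80 to 10.8 ± 4.08 (log2 difference 1.62, SE 0.46, adjusted p = 0.038). Top2a, Mcm5 and Pcna, of DNA replication, were chosen after their values were seen, and Top2a had 72, 67.2, 69.1 and 70.3 against 148, 143, 142 and 125 (log2 difference 0.99, SE 0.15, adjusted p = 0.00011). Mcm5 (0.95, adjusted p = 0.0019) and Pcna (0.71, adjusted p = 0.0052) rose as well, and in all 3 the groups did not overlap. The list had 8 calls without mouse 7 or 9, 9 without mouse 11 and 5 without mice 7 and 8, and leaving out 1 mouse ended the call of Aurkb (mouse 8), Ccnb1 (mice 7 and 9) and Bub1 (mice 5, 6, 7, 8, 9, 10, 11 and 12).

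Erythroid genes varied between mice in every group, with a summed signal of 12268 to 21997 in wild-type LPS, 13996 to 24509 in TNF-deficient and 10966 to 42863 in PBS spleens. Of 29 tested, Epb42, a protein of the red cell membrane (log2 difference 1.98, SE 0.58, adjusted p = 0.043), and Tal1, an erythroid transcription factor (log2 difference 1.78, SE 0.47, adjusted p = 0.022), were called higher (6.9%), with a list median of 0.83 and 25 of 29 differences positive. The list had 7 calls with edgeR and none with DESeq2, none without mouse 7, 9 or 11, 1 without mouse 3 or 12, and 5 without mouse 4. Some members may have had no adjusted p from DESeq2, which gave one to 5875 of all genes. The globin genes Hba-a1 (-0.10, adjusted p = 0.91) and Hbb-bs (-0.04, adjusted p = 0.96), chosen after their values were seen, were not called. Single-mouse omissions removed the call of Epb42 (mice 3, 7, 8, 9, 11 and 12) and Tal1 (mice 7, 9 and 11).

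Macrophage and iron genes gave a mixed picture with several rises. Of 19 red pulp macrophage genes 4 were called higher and none lower (21.1%), with 2 called without mouse 10 or 12 or without mice 7 and 8, and 7 without mice 5 and 6. Cd5l, a secreted protein of tissue macrophages, had 12.4, 40.3, 14.1 and 9.02 in mice 5 to 8, 56.7, 45.9, 56.1 and 43.9 in mice 9 to 12 and 59.1, 60.3, 39.7 and 52.6 in the PBS mice (log2 difference 1.59, SE 0.27, adjusted p = 0.00038). The TNF-deficient spleens lay in the PBS range, and of the wild-type LPS mice only mouse 6 came near. Hmox1, heme oxygenase, had 204, 361, 154 and 162 against 334, 514, 424 and 542 (log2 difference 1.10, SE 0.17, adjusted p = 0.00011), with mouse 6 above mouse 9. Slc40a1, the iron exporter ferroportin, rose from 19.6 ± 4.75 to 35 ± 11 (log2 difference 0.79, SE 0.20, adjusted p = 0.015), while the PBS spleens stood at 226 ± 7.59. C1qc, of complement C1, rose (log2 difference 0.51, SE 0.13, adjusted p = 0.016), as did Ncoa4, the ferritin receptor of iron recycling (log2 difference 0.77, SE 0.16, adjusted p = 0.0034), and Blvrb, biliverdin reductase B (log2 difference 0.81, SE 0.21, adjusted p = 0.02). Nr1h3, the sterol-sensing receptor LXR-alpha, was the only call of 6 marginal zone macrophage genes (16.7%) and was higher (log2 difference 1.16, SE 0.28, adjusted p = 0.012). The defining genes Marco (-0.35, adjusted p = 0.38) and Spic (0.51, adjusted p = 0.18), chosen after their values were seen, were not called, though Spic was called higher without mouse 6. Calls that fell away with 1 mouse left out were those of Slc40a1 (mice 5, 10 and 12), C1qc (mice 7, 8, 10 and 12), Blvrb (mice 7 and 9) and Nr1h3 (mice 7 and 8).

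Genes of mature neutrophils were higher, while 3 of 16 granule genes of neutrophil precursors were lower. Of 16 neutrophil genes 4 were called higher and none lower (25%), and their summed signal was 1021 to 2213 in wild-type and 2032 to 2661 in TNF-deficient spleens, against 543 to 630 after PBS. S100a8, a subunit of calprotectin, had 368, 549, 245 and 328 in mice 5 to 8 and 549, 657, 611 and 708 in mice 9 to 12 (log2 difference 0.81, SE 0.15, adjusted p = 0.0007). S100a9, its partner, rose (log2 difference 0.82, SE 0.15, adjusted p = 0.001), as did Csf3r, the G-CSF receptor (log2 difference 1.15, SE 0.21, adjusted p = 0.0011), and Retnlg (log2 difference 1.04, SE 0.22, adjusted p = 0.0046). In Csf3r and S100a8 the groups did not overlap, though for S100a8 mouse 6 and mouse 9 were almost equal. No call was left without mice 7 and 8, and 7 were made without mice 5 and 6. Of 16 granule genes of neutrophil precursors, Lyz2, lysozyme (log2 difference -0.48, SE 0.10, adjusted p = 0.0026), Ngp (log2 difference -0.44, SE 0.13, adjusted p = 0.043) and Lcn2 were lower (18.8%). Lyz2 was lost without mice 5 and 6 and Ngp without any 1 of 9 mice. The granule list as a whole did not move 1 way, with a median of -0.04, 7 differences positive and 9 negative. Of 16 monocyte genes Ly6c2 rose from 134 ± 17.7 to 221 ± 23.8 (log2 difference 0.72, SE 0.13, adjusted p = 0.00058), and Cd300e rose (log2 difference 1.53, SE 0.42, adjusted p = 0.033) but was lost without any 1 of mice 7 to 12. These 2 are 12.5% of the monocyte genes.

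Interferon-induced genes did not move one way. Of 37 type I interferon-stimulated genes 3 were called higher and 2 lower (8.1% and 5.4%), with a median of -0.11. The 3 became 1 with edgeR, with median-of-ratios scaling or without mouse 3, 9, 10, 11 or 12, and none without mouse 7 or 8. Mx1, an antiviral GTPase, had 115, 169.9, 133 and 164 in mice 5 to 8 and 76.9, 105, 93.4 and 91.9 in mice 9 to 12 (log2 difference -0.65, SE 0.17, adjusted p = 0.026). Ifi27l2a had 412, 565, 279 and 292 against 533, 587, 536 and 579 (log2 difference 0.59, SE 0.14, adjusted p = 0.0092), with mouse 6 inside the TNF-deficient range, and Bst2, tetherin, rose (log2 difference 0.50, SE 0.14, adjusted p = 0.043) but was lost with median-of-ratios scaling and with edgeR. Of 16 interferon-gamma-inducible GTPases, Gbp3 (log2 difference -0.66, SE 0.15, adjusted p = 0.0073) and Gbp9 (log2 difference -0.64, SE 0.17, adjusted p = 0.027) were lower (12.5%) and none higher. Of 9 plasmacytoid dendritic cell genes 3 were higher (33.3%), with Ly6d at 459 ± 50.9 against 266 ± 44.2 (log2 difference 0.79, SE 0.11, adjusted p = 1.8e-05) beside Bst2 and Spib, which B cells share. The median of that list was -0.19, with 5 of 9 differences negative, and it had 2 calls with edgeR and 1 without mouse 7, 8 or 9 or without mice 7 and 8. Omitting 1 mouse took away the call of Mx1 (mice 6, 8, 9, 11 and 12), Ifi27l2a (mice 7 and 8), Bst2 (mice 3, 7, 8, 9, 10, 11 and 12) and Gbp9 (mice 5, 7, 8, 9, 11 and 12).

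Among blood vessel and matrix genes, Cdh5, the adhesion protein of endothelial junctions, fell (log2 difference -1.04, SE 0.20, adjusted p = 0.0018) and Plvap, of endothelial pores, rose (log2 difference 0.77, SE 0.18, adjusted p = 0.011). They were the only calls of 20 endothelial genes (5% in each direction). Cdh5 had 63.1, 50.1, 98.9 and 70.3 in mice 5 to 8 and 23.3, 43.5, 31.5 and 35.9 in mice 9 to 12. Bgn (log2 difference 0.41, SE 0.10, adjusted p = 0.016) and Col3a1 (log2 difference 0.43, SE 0.13, adjusted p = 0.045), matrix proteins of fibroblasts, were higher among 18 tested (11.1%). Col3a1 was lost with median-of-ratios scaling and with edgeR. Plvap was lost without mouse 8, Bgn without mouse 9 and Col3a1 without any 1 of 8 mice.

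**Figure D4:**
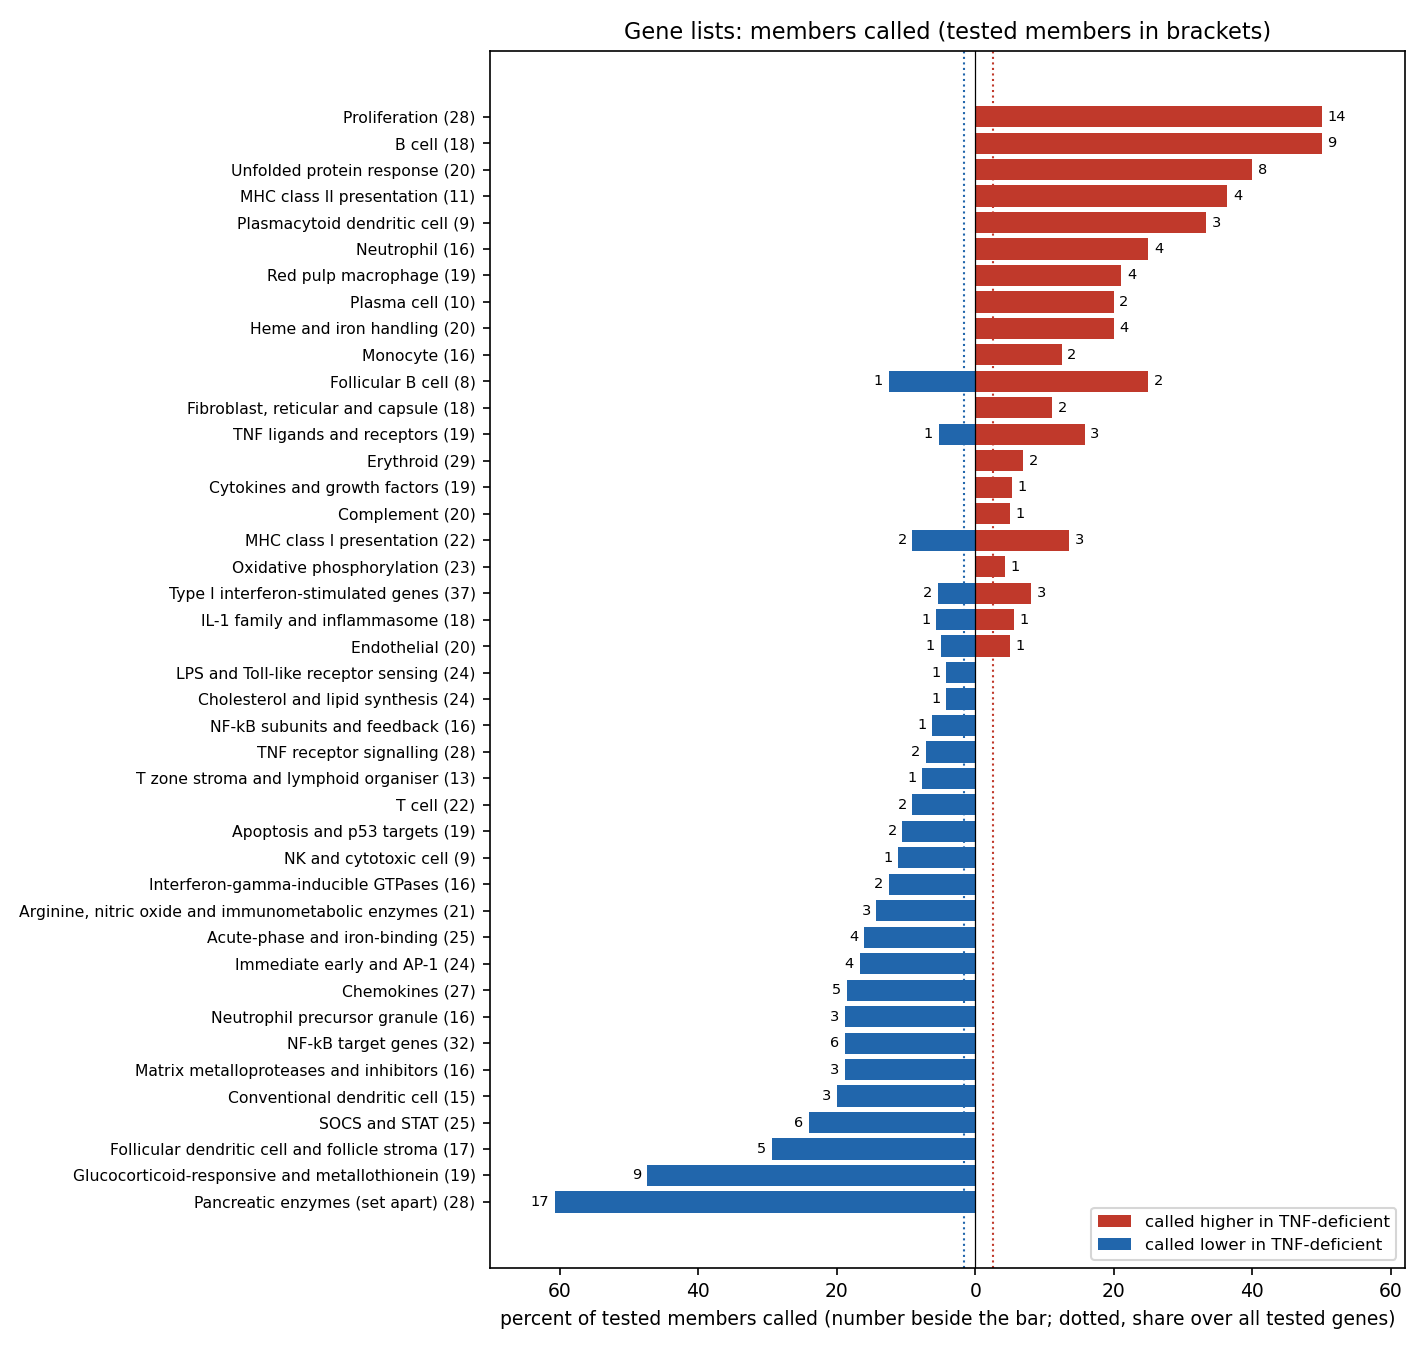
Percent of each list's tested members called higher (red, to the right) or lower (blue, to the left) in TNF-deficient spleens, with the number called beside each bar, for the 42 lists with at least 1 call and at least 8 tested members. Dotted lines mark 2.56% and 1.59%, the shares over all genes. Cell division, B cell and unfolded protein response genes lie furthest to the right, and glucocorticoid-responsive genes furthest to the left beside the pancreatic enzymes.

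The largest fall among the genes named by rule was that of Cirbp (chr10:80165985-80172786), a cold-inducible RNA-binding protein. It had 90.6, 83.1, 155 and 110.0 in mice 5 to 8, 22.3, 31.7, 23.6 and 26.6 in mice 9 to 12 and 38.4, 45.2, 34.4 and 31.5 after PBS (log2 difference -2.0, SE 0.19, adjusted p = 4.4e-08). Of the 4 TNF-deficient spleens 3 lay below the PBS range, and every wild-type LPS spleen lay above it. Its relative Rbm3, also induced by cold and chosen after its values were seen, had 921, 697, 857 and 811 against 398, 457, 470.2 and 439 (log2 difference -0.89, SE 0.11, adjusted p = 1.8e-06), with 248, 179, 210.5 and 195 after PBS. The heat shock genes Hsp90aa1, Hspe1 and Hspa8, chosen in the same way, were higher, but no list of heat shock genes was tested. Hsp90aa1 had 159, 167, 159 and 159 against 363, 274, 290.2 and 234 (log2 difference 0.83, SE 0.12, adjusted p = 6.3e-05), Hspe1 had 310.1, 266, 221 and 267 against 491, 428, 509.5 and 381 (log2 difference 0.76, SE 0.11, adjusted p = 4.7e-05), and Hspa8 rose less (log2 difference 0.49, SE 0.10, adjusted p = 0.0044). In all 5 genes the groups did not overlap, which for Cirbp the naming rule required, and no omission of 1 mouse ended a call. The heat shock genes Hspa1a (0.65, adjusted p = 0.30), Hspa1b (1.12, adjusted p = 0.053) and Hspa1l (-0.24, adjusted p = 0.90), also chosen after their values were seen, were not called.

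The rule for the 15 largest falls and rises took only genes whose groups did not overlap and whose higher mean was at least 10. It left out the pancreatic enzymes, so the lack of overlap in these genes is no separate result. Other large falls under it were those of Btbd3 (41.8, 35.5, 53.4 and 50.5 in mice 5 to 8 and 15.2, 8.23, 10.8 and 16 in mice 9 to 12, log2 difference -1.80, SE 0.24, adjusted p = 1.5e-05) and of Ctla2a, a cathepsin inhibitor (146, 94.1, 98.9 and 93.8 against 27.3, 42.3, 41.3 and 30.6, log2 difference -1.58, SE 0.18, adjusted p = 1.6e-06). Edn1, the vessel-constricting peptide endothelin (log2 difference -1.96, SE 0.44, adjusted p = 0.0072), Mmp13, a collagenase (log2 difference -1.99, SE 0.45, adjusted p = 0.0072), and Ramp3, a partner of the adrenomedullin receptor (log2 difference -1.71, SE 0.34, adjusted p = 0.0026), fell from levels between 9.42 and 48.7 in wild-type mice. Bcl2l14 (-1.64), Mreg (-1.44) and Dffb, a DNase of apoptosis (-1.43), complete the 15 largest falls under this rule. Under the same rule, the 15 largest rises beside those above were Kntc1 (1.74), Haus8 (1.71), Espl1 (1.43) and Mxd3 (1.42), of which the first 3 act in chromosome segregation, Clec4a3, a C-type lectin of myeloid cells (1.70), and Srpk3 (1.46), Efhd1 (1.45), Slc16a10 (1.45), Sema3g (1.45) and Svep1 (1.41). These 10 had a mean signal of at most 30.2 in either group. Leaving out 1 mouse ended the call of Mmp13 (mouse 8), Bcl2l14 (mouse 11), Kntc1 (mice 5, 8, 9, 10, 11 and 12) and Mxd3 (mice 7, 8, 9, 10, 11 and 12). Without mice 7 and 8, only Btbd3, Ctla2a and Efhd1 of the genes in this paragraph were called.

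The same mice also gave an inguinal lymph node each, which allows a test of whether the TNF-deficient difference differs between the 2 organs. In a joint fit none of 13617 genes passed (0%), with 956 at an unadjusted p below 0.05 and a smallest adjusted p of 0.053. With the mouse as a block, since both organs come from the same animals, 9 genes passed (0.0661%), 3 higher in spleen than in lymph node and 6 lower. Of these, 3 were the pancreatic amylase genes Amy2a3, Amy2a4 and Amy2a5, which may share reads and so may not be separate results. Hmox1 rose in spleen and had a log2 difference of -0.24 in lymph node (adjusted p = 0.81), and the difference between organs was 1.34, SE 0.28, adjusted p = 0.077, or 0.0006 with the block. Ccr7 had -0.40 in lymph node (adjusted p = 0.11), with a difference of -0.94, SE 0.18, adjusted p = 0.053, or 0.0011 with the block. The B cell factor Pou2af1 (0.48 in spleen and -0.41 in lymph node) and Marcksl1 (-0.72 and 0.30) passed with the block as well, at 0.02 and 0.0085, as did Angpt2 and Nabp1, at 0.033 and 0.047, which were not called in spleen itself.

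For the following genes the difference between organs passed in neither fit, which does not show that the organs were alike. Tnf was higher in lymph node by 2.05, against 1.31 in spleen (lymph node adjusted p = 1.7e-06), H2-T10 by 1.55 (adjusted p = 2.9e-07) and Glo1 by 1.19 (adjusted p = 3.1e-07). Cxcl13 had -1.0 (adjusted p = 9.2e-06), Clu -0.57 (adjusted p = 0.00035), Cirbp -1.42, against -2.0 in spleen (lymph node adjusted p = 8.5e-05) and Ctla2a -1.28 (adjusted p = 4.9e-05). Birc3 and Nfkbia were lower there too (-0.70 and -0.42). Cxcl10 (-0.13, adjusted p = 0.95), S100a9 (0.07, adjusted p = 0.97) and Fscn1 (0.11, adjusted p = 0.95) were not called in lymph node, against log2 differences of -1.15, 0.82 and -0.70 in spleen.

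**Figure D5:**
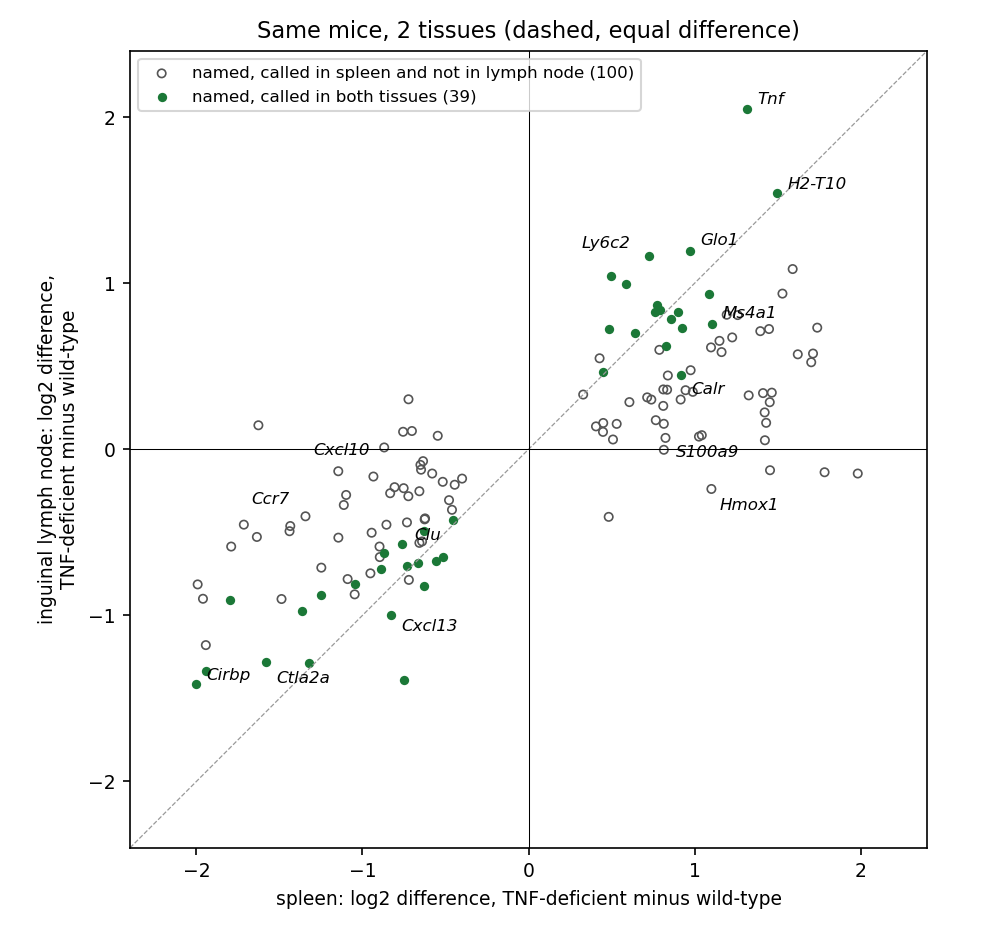
Log2 difference between TNF-deficient and wild-type LPS mice in spleen (horizontal axis) and in inguinal lymph node (vertical axis) for the named genes that were called in spleen and are no pancreatic enzymes, filled where they were called in lymph node too. The genes were chosen by their spleen values, so their places relative to the dashed line of equal difference are no test. Tnf lies above that line, Ccr7 lies between it and the horizontal axis, and Hmox1 lies below 0 in lymph node.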

How the data were processed

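The samples were whole spleens and inguinal lymph nodes, 1 library per mouse and organ. Library preparation read the 3′ ends of polyA RNA with a 10-base molecular identifier, per the labels' protocols; whether reads were collapsed by it is not stated there. The submitters' processing notes name the genome build mm10 and the tools FastQC, MultiQC and edgeR, without an aligner or counter. The deposited tables are named as CPM, but the authors' values sum to 766785 to 839569 in spleen, so the unit was taken as a normalized signal. Every value was a whole multiple of 1 step per library (100% within 0.1 of a whole number), which gave back the counts: totals were 433575 to 912730 in spleen. Intervals and p-values cover these mice only.

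Testing was limited to genes that reached a signal of 1 in 4 or more of the 12 spleen libraries, and was done with limma 3.58.1 (R 4.3.3) on log2(signal + 1), with 3 groups in 1 fit (9 residual degrees of freedom), an intensity trend and Benjamini-Hochberg adjustment over 13421 genes. Recovered counts were tested with edgeR 4.0.16 (quasi-likelihood) and DESeq2 1.42.0. The script was tested on simulated data. The members, lists and tests were chosen with earlier results of these data known, and give no independent support. The genes named by rule were the 15 with the largest called difference in each direction whose groups did not overlap and whose higher mean was at least 10 (predicted, ribosomal, mitochondrial, antigen receptor and pancreatic enzyme genes left out), TNF, lymphotoxin and their receptors, the follicle stroma list, and up to 4 called members of each of 55 lists plus those called against the list's direction. The other genes were chosen outside this rule. Many of them are said to be chosen after their values were seen. Not all are so marked, among them Cd3e, Cd4, Cd8a, Psmb9, Pou2af1, Marcksl1, Angpt2, Nabp1 and the amylase genes. Gene positions come from GENCODE M21 (13778 of 13820 symbols matched). The lymph node was compared in a joint fit of both organs. The pairing there comes from the labels, which give both organs of a mouse the same number, and the deviations of the 2 organs of a mouse from their group means correlated by -0.01 to 0.137. Mice of the compared groups are not paired.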

Additional observations from a re-analysis of the deposited data

Results flagged for a closer look

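In 346 groups of 4 mice looked at, 1 mouse stood apart from the other 3 by more than Dixon's 95% limit in 22, where chance gives about 1 in 20. Among wild-type LPS spleens, mouse 6 was high for Cd5l (40.3, the others 9.02 to 14.1), Hsp90aa1 (167.5, the others 158.6 to 159.1) and Pou2af1 (154, the others 93.8 to 104), and low for Icam1 (28.1, the others 59.5 to 65.9). Mouse 7 was high for Bcl2l11 (102.1, the others 70.2 to 73.9), Dusp1 (216.7, the others 156.4 to 163.8) and Insig1 (125.6, the others 96.6 to 99.2). Mouse 5 was high for Ctla2a (145.7, the others 93.8 to 98.9) and Pcna (143.9, the others 120.8 to 122.2). Mouse 8 was high for Col3a1 (133.4, the others 105.2 to 109.3) and low for Tnfrsf1b (64.9, the others 90.6 to 94.1).

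Among TNF-deficient spleens, mouse 11 was high for Sema3g (39.4, the others 26.3 to 28), Edn1 (7.87, the others 1.33 to 2.35), Socs3 (84.6, the others 49.2 to 55.3) and Csf3r (70.8, the others 62.3 to 63.7), and low for Bgn (194.8, the others 205 to 206.4) and Ccl19 (50.2, the others 62.3 to 64.7). Mouse 9 was low for Nfkbia (307.5, the others 344.5 to 346.2) and Plvap (48.6, the others 62 to 62.6). Mouse 10 was high for C4b (109.4, the others 86.5 to 89.0), Cd8a (39.98, the others 25.6 to 27.3) and the pancreatic amylase gene Amy2a3 (7.06, the others 0).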

How the results depend on the processing

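All of the alternatives planned were run, and the fits without mice 5 and 6 and without mice 7 and 8 were added after the data were seen. The count of genes higher in TNF-deficient spleen, 343, became 175 with DESeq2, 691 without mice 5 and 6 and 73 without mice 7 and 8, and ranged from 191 to 475 when 1 mouse was left out. DESeq2 gave an adjusted p to 5875 genes, against 13421 in the main fit, so its counts rest on a smaller set. The count of genes lower, 213, became 76 without mice 7 and 8 and ranged from 139 to 244 when 1 mouse was left out. It was within 1.5 times under the other settings. DESeq2 gave no adjusted p for 80 of the called genes, which its own filter left out, and the fits without a pair of mice have fewer samples; beyond that the cause was not tested. For the comparison with lymph node the count of 0 became 9 with the mouse as a replicate block and 7 with median-of-ratios scaling, and ranged from 0 to 9 when 1 mouse was left out. Of 141 named genes called, 87 were called whichever mouse was left out, 135 with edgeR, 134 with median-of-ratios scaling, 104 of the 113 to which DESeq2 gave an adjusted p, 125 without mice 5 and 6 and 51 without mice 7 and 8. No named gene was called in the opposite direction under any setting run. With edgeR, Atp5c1, Bst2, Col3a1, H2-DMa, H2-Ob and Pou2af1 were not called. Spleen libraries held fewer counts than the lymph node libraries, so genes with a signal of a few units could be called only for large differences.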
